A study of Homo sapiens with 6 samples.

Results

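Syndecans and glypicans are the 2 main families of cell surface heparan sulfate proteoglycans, and their RNAs were examined in RNA that came down with IGF2BP3 from Merkel cell carcinoma (MCC) cells. The group holds *SDC1* to *SDC4* and *GPC1* to *GPC6*, 10 of the 60655 genes in the count table, taken by gene name. The families were picked for attention because of how they compared between IGF2BP3 IP and IgG IP, so the differences of these 10 RNAs in that comparison are given below as a description and not as a test. Of the 10 RNAs, 9 had enough counts to enter the fit over all genes, and *GPC5* did not, with 0 to 3 counts in each library.

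The data were RNA immunoprecipitation sequencing (RIP-seq) libraries from WaGa, an established Merkel cell polyomavirus-positive MCC line, wild type and untreated. In RIP-seq, an antibody pulls a protein and the RNA bound to it out of a cell lysate, and that RNA is sequenced. The IGF2BP3 IP group (5 µg of IGF2BP3 antibody) and the IgG IP group (5 µg of IgG antibody, the negative control) each held 3 replicates, numbered 1 to 3. All libraries came from one cell line, read as 150 bp pairs, and no library of total lysate RNA was analysed here, so the control for each RNA is its level in the IgG IP alone.

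A syndecan has a short cytoplasmic tail and a membrane-spanning segment, whereas a glypican is a globular protein tied to the membrane by a glycosylphosphatidylinositol (GPI) anchor. Both carry heparan sulfate chains on the outside of the cell, which bind growth factors, Wnt and Hedgehog proteins and matrix, and the chains of cell surface proteoglycans also serve as attachment sites for viruses. IGF2BP3 is an oncofetal RNA-binding protein of the cytoplasm that is known to alter the stability and translation of the mRNAs it holds.

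The ends of the coding sequences, which encode the end of the cytoplasmic tail, are shown for *SDC1*, *SDC3* and *SDC4*. Of their RNAs, only that of *SDC3* was enriched in the IGF2BP3 IP by the thresholds given below. *SDC2* was left out of this display, so the marked bases do not describe the whole family. Whether the stretch is more alike than other parts of the coding sequences was not tested. Each line gives the last 48 coding bases before the stop codon, 5′ to 3′ on the minus strand of GRCh38, from the canonical transcripts of GENCODE version 44. Capitals mark the 17 bases that were identical in all 3 sequences. The positions, in the last exon of each gene, are chr2:20202769-20202816 for *SDC1*, chr1:30873214-30873261 for *SDC3* and chr20:45327267-45327314 for *SDC4*.
SDC1: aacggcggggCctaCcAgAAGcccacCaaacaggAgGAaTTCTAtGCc
SDC3: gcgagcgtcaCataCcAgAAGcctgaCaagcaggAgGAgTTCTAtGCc
SDC4: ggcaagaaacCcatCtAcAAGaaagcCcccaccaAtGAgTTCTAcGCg
In these stretches *SDC1* and *SDC3* shared 35 of 48 bases, *SDC3* and *SDC4* 21, and *SDC1* and *SDC4* 20. The end of this tail is the part that PDZ-domain proteins such as syntenin hold. Over the whole coding sequences, identity was taken as matched bases over the length of the longer sequence, so unequal lengths lower it. It ran from 33.3% to 60.9% between syndecans and from 53.4% to 68.3% between glypicans. Between a syndecan and a glypican it ran from 25.8% to 50.2%, which overlaps the range of the syndecans. For *SDC3* it was 50.2% with *GPC1* and 48.9% with *SDC1*. The longest run of bases shared by any 2 of the 10 transcripts was 24 (*SDC3* and *SDC4*), against reads of 150 bp.

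Whole-number counts on genes totalled 9758759 to 14886414 per library. CPM values are these counts scaled to a common library size after TMM normalization, and TPM are the authors' length-scaled values, used wherever genes are compared with each other. Of the 60655 genes, 14507 were tested with edgeR's quasi-likelihood test, and an RNA counted as enriched where it was at least 1.5-fold higher (0.58 on the log2 scale) at a Benjamini-Hochberg p-value below 0.05. By that rule 1.16% of them were enriched and 0 lower, with 59 at least 1.5-fold lower at an unadjusted p-value under 0.05 and 0 lower by DESeq2. The replicate 1 libraries deviated from their group means together and stood apart from replicates 2 and 3. The 8 markers of MCC checked, among them *KRT20* and *ATOH1*, had 443 to 15857 counts in every library. The 5 leukocyte markers had at most 4 counts, and of 6 fibroblast markers 5 had at most 2 counts while *DCN* had 479 to 762. Of 4 keratinocyte markers, *KRT1* and *KRT14* had 0 counts, where 3 counts would be 0.201 to 0.325 CPM, *KRT5* 4 to 11 and *KRT10* 135 to 177.

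When IGF2BP3 IP was compared with IgG IP, *SDC3* was the syndecan that differed most. Syndecan 3 is the family member best known from the nervous system. In replicates 1 to 3 its RNA had 279, 532 and 547 counts in the control libraries and 897, 1123 and 1004 with the IGF2BP3 antibody. After scaling, these were 30.2, 35.7 and 44.1 CPM against 75.3, 84.8 and 81.6 CPM. All 3 IGF2BP3 IP libraries were above all 3 controls, with no overlap. The means were 36.7 ± 6.99 and 80.6 ± 4.84 CPM (SD, n = 3 each), a 2.19-fold difference. The log2 fold change was 1.13 (SE 0.14, 95% interval 0.83 to 1.44), and same-numbered libraries differed by 1.32, 1.25 and 0.89 on the log2 scale. Among all tested RNAs this value stood at the 99.5th percentile. *SDC3* was past both thresholds, the only one of the 9 tested members to be so, beside 1.16% of all tested RNAs (2.22% by DESeq2, which also called *SDC3* alone). By fold change alone in the edgeR fit it was again the 1 member at or above 1.5-fold, beside 5.3% of all tested RNAs. It was no longer past the adjusted p-value threshold without IgG IP replicate 2 (log2 fold change 1.11), without IGF2BP3 IP replicate 2 (1.09) or without IGF2BP3 IP replicate 3 (1.11). By limma-trend on log2(TPM + 0.1), which called 0 of all tested RNAs, its log2 fold change was 1.30.

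The other syndecan RNAs were not past the thresholds, and their groups overlapped. *SDC1*, the syndecan of epithelia and plasma cells, had 373, 585 and 630 counts in the control libraries and 559, 630 and 569 with the IGF2BP3 antibody. Its mean was 43.5 ± 6.38 CPM in the IgG IP and 46.9 ± 0.667 CPM in the IGF2BP3 IP, with a log2 fold change of 0.11 (SE 0.12, 95% interval -0.15 to 0.37). *SDC4*, a broadly expressed syndecan of focal adhesions, had 278, 456 and 429 against 372, 387 and 398 counts, at 31.8 ± 2.47 and 30.9 ± 1.58 CPM. Its log2 fold change was -0.04 (SE 0.11, 95% interval -0.28 to 0.20). For both RNAs the interval stayed below a 1.5-fold difference in either direction. *SDC2*, a syndecan mainly of mesenchymal cells, was rare, with 14, 28 and 24 counts against 9, 29 and 19. Its log2 fold change of -0.25 had an SE of 0.38 and an interval from -1.12 to 0.62, so a difference of 1.5-fold in either direction was not detectable at this depth. On the TPM scale, to which no TMM step was applied, the order of the *SDC2* group means was the other way, at 1.19 times the IgG IP mean.

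Among the glypicans, *GPC1* and *GPC6* also had all IGF2BP3 IP libraries above all controls. *GPC1*, a glypican of the nervous system and of several carcinomas, had 86, 129 and 110 counts in the control libraries and 175, 162 and 158 with the IGF2BP3 antibody. The means were 8.95 ± 0.345 and 13.3 ± 1.28 CPM. The log2 fold change was 0.57 (SE 0.14, 95% interval 0.25 to 0.88), a 1.48-fold difference that met neither the fold minimum nor the adjusted p-value threshold, and same-numbered libraries differed by 0.66, 0.50 and 0.53. *GPC6*, a glypican known from growth of the long bones, had 159, 208 and 209 against 239, 297 and 250 counts. Its means were 16.0 ± 1.80 and 20.9 ± 1.30 CPM, with a log2 fold change of 0.39 (SE 0.13, 95% interval 0.10 to 0.69). Its same-numbered libraries differed by 0.22, 0.69 and 0.27, so the pair of replicate 2 differed most. On the TPM scale the *GPC6* mean was 1.69 times the IgG IP mean, above the fold minimum. An exon of *GPC6* overlaps a long noncoding RNA of the opposite strand, which had 1 to 7 counts per library.

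The remaining glypican RNAs overlapped between the groups. *GPC3*, a glypican of fetal tissues and liver tumours that acts on Hedgehog signalling, had 85, 131 and 131 counts against 110, 141 and 181, with a log2 fold change of 0.28 (SE 0.19, 95% interval -0.16 to 0.72). *GPC2*, a glypican of the developing nervous system, had 22, 44 and 50 counts against 35, 44 and 55, with a log2 fold change of 0.18 (SE 0.27, 95% interval -0.43 to 0.80) and a TPM mean of 0.963 times the IgG IP mean. *GPC4*, a glypican that acts in synapse formation and Wnt signalling, had 11, 41 and 27 counts against 13, 28 and 15. Its log2 fold change was -0.49 (SE 0.39, 95% interval -1.38 to 0.39), the lowest of the members. The intervals of all 3 RNAs reached beyond 1.5-fold in at least one direction. *GPC5* had 0, 3 and 0 counts against 1, 1 and 1, too few to compare.

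Over both families, 6 of the 9 tested members had a log2 fold change above 0, beside 48.9% of all tested RNAs. Their median was 0.18 (0.04 for the 4 syndecans and 0.28 for the 5 tested glypicans), beside -0.01 for all tested RNAs. In 3 members all IGF2BP3 IP libraries were above all controls, an order that 12.0% of all tested RNAs showed, and in 0 members was the order reversed, which 8.69% showed. In the other 6 the groups overlapped. Since the comparison chose these families, nothing is read from these shares.

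**Figure D1:**
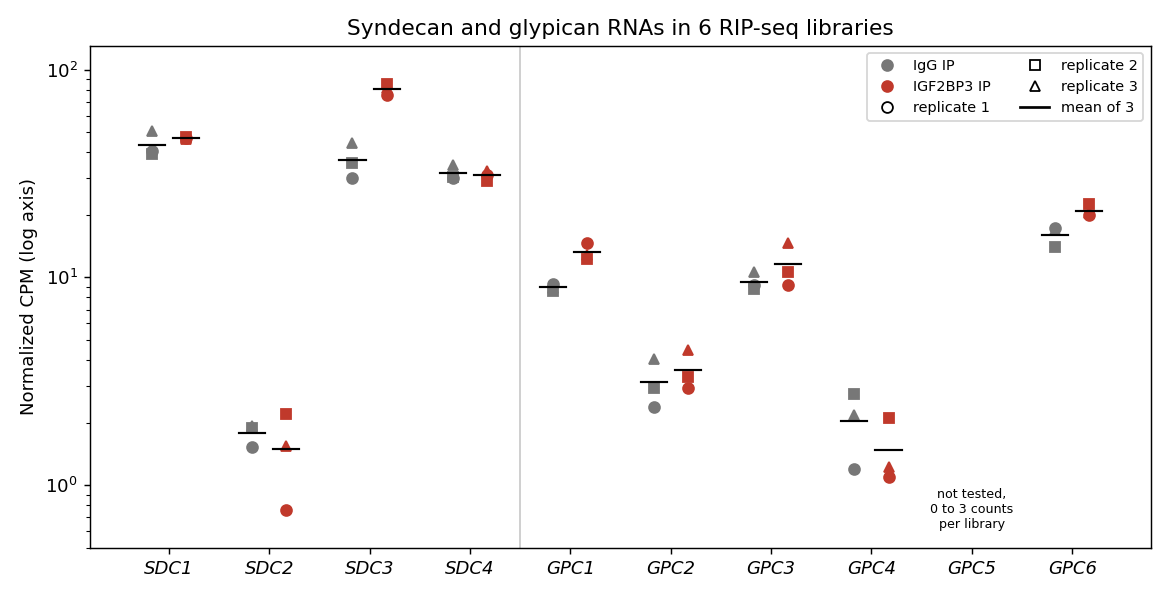
TMM-normalized CPM (log axis) of each syndecan and glypican RNA in the 3 IgG IP libraries (grey) and the 3 IGF2BP3 IP libraries (red), with symbols for replicate numbers and a bar at the mean of 3. *SDC3* lay at a mean of 36.7 CPM in the IgG IP and 80.6 CPM in the IGF2BP3 IP with no overlap, while the groups of *SDC1* (43.5 and 46.9 CPM) and *SDC4* (31.8 and 30.9 CPM) overlapped.

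**Figure D2:**
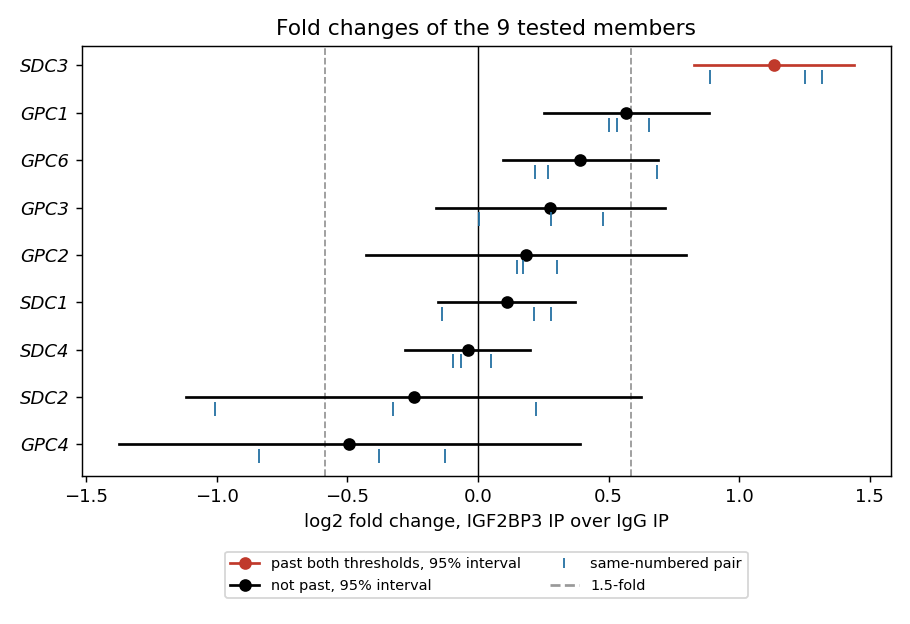
Log2 fold change of IGF2BP3 IP over IgG IP for the 9 tested members, with 95% intervals (horizontal lines), the differences of same-numbered libraries (blue ticks) and 1.5-fold differences (dashed lines). The interval of *SDC3*, from 0.83 to 1.44, lies wholly beyond 1.5-fold, and those of *GPC1* and *GPC6* lie above 0 but reach below 1.5-fold.

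Levels of the 10 RNAs were then set in order by TPM, which is scaled for transcript length. In the IgG IP the order was *SDC1*, *SDC4*, *SDC3*, *GPC3*, *GPC1*, *GPC2*, *GPC6*, *SDC2*, *GPC4* and *GPC5*, and FPKM gave the same order. Only 2 neighbours in that order had ranges that did not overlap, namely *GPC3* above *GPC1* and *SDC2* above *GPC4*. In the IGF2BP3 IP *SDC3* moved from rank 3 to rank 1 and *GPC6* from 7 to 6, past *GPC2*. There the ranges of neighbours overlapped only for *SDC3* with *SDC1* and for *GPC3* with *GPC1*. *SDC3* had 4.88, 7.97 and 10.1 TPM in the control libraries and 14.1, 21.2 and 20.2 TPM with the IGF2BP3 antibody. *SDC1* had 10.2, 15.0 and 18.9 TPM against 14.6, 19.6 and 19.2 TPM. Within a library the scale cancels, and *SDC3* lay at 0.480, 0.530 and 0.534 times the TPM of *SDC1* in the IgG IP but at 0.968, 1.08 and 1.05 times in the IGF2BP3 IP. *SDC3* was thus about as abundant as *SDC1* in the IGF2BP3 IP and the less abundant of both in each control library.

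The make-up of the syndecan RNAs followed from this. *SDC3* took 19.7%, 21.0% and 22.7% of the summed syndecan TPM in the control libraries and 34.4%, 38.1% and 36.6% with the IGF2BP3 antibody. The mean share was 21.2 ± 1.49% against 36.4 ± 1.83% (SD, n = 3 each). Over all 10 members it was 15.1 ± 1.07% against 26.6 ± 1.69%. The summed TPM of the syndecans was 35.7 ± 10.0 in the IgG IP and 50.6 ± 8.37 in the IGF2BP3 IP, and without *SDC3* it was 28.0 ± 7.40 and 32.1 ± 4.57. For the glypicans the sums were 14.2 ± 3.97 and 18.5 ± 3.05. Both glypican and *SDC3*-free syndecan sums overlapped between the groups, and replicate 1 had the lowest sum in each group. TPM were taken as deposited, without the TMM step behind the CPM values, so group differences in TPM can include a difference in scale. The sums are therefore not read as more proteoglycan RNA in the IGF2BP3 IP.

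**Figure D3:**
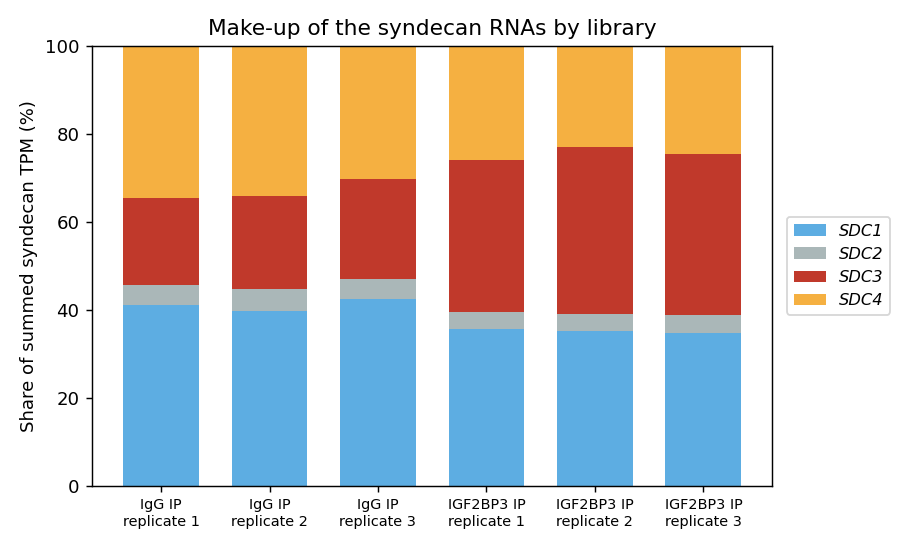
Share of each syndecan RNA in the summed syndecan TPM of each library (stacked bars, percent). *SDC3* (red) makes up 19.7% to 22.7% in the IgG IP libraries and 34.4% to 38.1% in the IGF2BP3 IP libraries.

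What the members share in sequence was described from their canonical transcripts in GENCODE version 44. *SDC3* (chr1:30869466-30908758, minus strand, 5 exons) has a transcript of 5246 nt with a 3′ UTR of 3745 nt and a GC content of 60.8%. *GPC6* (chr13:93226807-94408020, plus strand, 9 exons) has 7121 nt with a 3′ UTR of 4803 nt and 40.8% GC. *GPC1* (chr2:240435663-240468076, plus strand, 9 exons) has 3719 nt with a 3′ UTR of 1786 nt and 66.7% GC. The 3 RNAs whose groups did not overlap thus included both GC-rich and GC-poor transcripts, with medians over the tested protein-coding genes of 3487 nt, 1402 nt and 47.8%. GC content moved with enrichment over all genes, with a median of 56.4% in the enriched protein-coding RNAs and 47.6% in the others. After each library was corrected for GC content, the log2 fold change was 0.98 for *SDC3*, 0.37 for *GPC1* and 0.49 for *GPC6*. The part of GC content in these differences was not tested further.

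CA-rich stretches are among the sequences that IGF2BP proteins are known to bind, so the letters ACACA were counted on the transcript strand, overlapping matches included. *SDC3* holds 14 (2 coding and 12 in the 3′ UTR), or 2.67 per kb, and *GPC6* holds 18 (5 in the 5′ UTR, 2 coding and 11 in the 3′ UTR), or 2.53 per kb. These densities stood at the 94.6th and 93.7th percentiles of 11867 tested protein-coding transcripts, whose median was 1.00 per kb. *GPC1* holds 5, or 1.34 per kb, *SDC1* and *GPC5* hold 3 each, *GPC2*, *GPC3* and *GPC4* hold 1 each, and *SDC2* and *SDC4* hold 0. The letters occur in 87.9% of the tested transcripts, and their median density was 1.05 per kb in the enriched RNAs and 1.00 in the others. The densest 30 bases are shown for the 2 members richest in these letters, as the first such window of *SDC3* (coding, chr1:30874472-30874501, minus strand, GRCh38) and of *GPC6* (5′ UTR, chr13:93226928-93226957, plus strand, GRCh38), with ACACA in capitals.
SDC3: ccagaagaagagaccACACAaccagACACA
GPC6: atccccaACACAtacctccacgcACACACA
A match of these letters is a description of the sequence and not a binding site. Counted in the same way, CATA, CATC and CATT stood at the 30.8th, 46.7th and 17.7th percentiles in *SDC3*. In *GPC6* they stood at the 83.2nd, 42.1st and 98.7th, and in *GPC1* at the 7.29th, 37.7th and 1.61st. Their median densities were 1.34, 5.63 and 3.08 per kb in the enriched RNAs and 2.15, 3.93 and 4.28 in the others. GGAC, letters within which mRNA methylation occurs, had a median density of 3.57 per kb over the tested transcripts. It was 9.95 per kb in *GPC1* (98.6th percentile), 4.19 per kb in *SDC3* (60.4th) and 0.907 per kb in *SDC2* (1.58th). *GPC2*, *SDC1* and *GPC3* stood at the 88.4th, 83.1st and 75.6th percentiles, and *GPC6* at the 24.0th. *GPC5*, *SDC4* and *GPC4* stood at the 46.7th, 31.1st and 16.1st. Over all tested protein-coding genes, the median GGAC density was higher in the enriched RNAs than in the others. The enriched RNAs also had the higher median GC content, and none of these motif densities was adjusted for GC content. Whether the motif differences go beyond base composition was not tested.

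To place the core proteins among the genes that build, modify and read heparan sulfate, 8 lists with 87 genes were examined, chosen by known function. Of the 66 tested, 2 were enriched in the IGF2BP3 IP, *PTPRS* and *PIGU*, and 0 were lower (edgeR quasi-likelihood test), where 1.16% of all tested RNAs were enriched. At an unadjusted p-value under 0.05, 9 were higher and 0 lower, beside 9.72% and 3.1% of all tested RNAs. DESeq2 called 3 of the 63 to which it gave an adjusted p-value enriched, beside 2.22% of all RNAs, and 0 lower. The median log2 fold change was 0.03, beside -0.01 for all tested RNAs, and 38 of 66 lay above 0, beside 48.9% of all. In 12 all IGF2BP3 IP libraries were above all controls (12.0% over all tested RNAs), in 2 below (8.69%). With the replicate number as a block 4 were enriched, where 3.56% of all tested RNAs were. By limma-trend on log2(TPM + 1) the log2 fold changes of *PTPRS* and *PIGU* were 0.89 and 0.81 (adjusted p = 0.565 and 0.600).

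Among the enzymes that make the chains, 0 RNAs were called. In linker and chain synthesis 0 of 11 tested genes passed the thresholds in either direction, with a median log2 fold change of 0.02. The highest value was that of *EXTL3*, a glycosyltransferase that starts the chain, at 0.50 (SE 0.21, adjusted p = 0.360), and the lowest that of *B4GALT7*, a galactosyltransferase of the linker, at -0.21 (SE 0.18, adjusted p = 0.662). *FAM20B*, the xylose kinase of the linker, and *EXTL2* had the highest TPM of this list, with log2 fold changes of -0.12 and -0.15. In sulfation and epimerization 0 of 11 passed, with a median of -0.07. *NDST1*, which removes acetyl groups and adds sulfate, had 244, 485 and 413 counts against 416, 663 and 603, a log2 fold change of 0.54 (SE 0.16, adjusted p = 0.177). *HS3ST3B1* was at -0.50 (SE 0.34, adjusted p = 0.588) with 11 to 37 counts, and the abundant RNAs of *GLCE*, the epimerase, and *HS2ST1* were at -0.07 and 0.03. In donor supply 0 of 6 passed, and all lay between *UGP2* at -0.18 and *SLC35B2*, the Golgi carrier of the sulfate donor, at 0.05. *SLC35B3*, a further such carrier, was at -0.10.

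The RNAs of proteins that edit or shed the proteoglycans also gave 0 calls among 6 tested, with a median of 0.01. *ADAM10*, a sheddase, was at -0.09 and *MMP14*, a membrane-bound metalloprotease, at 0.10. *NOTUM*, an esterase first linked to glypican release and now known to inactivate Wnt proteins, was highest at 0.39 (SE 0.20, adjusted p = 0.471), and *SULF1*, which removes sulfate from the chains, was lowest at -0.10.

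GPI anchor attachment, on which glypicans depend, had 1 enriched RNA among 8 tested. *PIGU*, a subunit of the transamidase that joins the anchor to the protein, had 79, 112 and 95 counts in the control libraries and 175, 201 and 160 with the IGF2BP3 antibody. Its means were 7.91 ± 0.571 and 14.3 ± 1.14 CPM without overlap, with a log2 fold change of 0.86 (SE 0.14, adjusted p = 0.0270). *PIGU* was no longer past the threshold without IgG IP replicate 2 (log2 fold change 0.82) or 3 (0.84), or without IGF2BP3 IP replicate 2 (0.81) or 3 (0.91). *PIGS*, a further subunit, was at 0.37 (SE 0.10, adjusted p = 0.156), and *PIGK*, the catalytic subunit, at -0.07. The median of the list was 0.28.

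Among proteins that hold the syndecan tail, 0 of 9 tested RNAs passed, with a median of -0.03. *TIAM1*, an exchange factor for Rac that binds the tail, had 219, 430 and 430 counts against 444, 732 and 602, a log2 fold change of 0.69 (SE 0.18, adjusted p = 0.111). With the replicate block it was 0.70 (adjusted p = 3.19e-06) and by DESeq2 0.68 (adjusted p = 0.0158), so its call depended on the test. *SDCBP*, which encodes syntenin, was lowest at -0.19 (SE 0.32), and *PDCD6IP* and *EZR*, the most abundant of the list, were at -0.06 and -0.03 (*EZR* at 0.01 when scaled by library totals).

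Ligands and co-receptors had 1 enriched RNA among 11 tested. *PTPRS*, a receptor phosphatase of neurons that binds heparan sulfate, had 378, 660 and 542 counts in the control libraries and 1016, 1061 and 942 with the IGF2BP3 antibody. Its means were 43.0 ± 1.75 and 80.7 ± 4.39 CPM without overlap, with a log2 fold change of 0.91 (SE 0.09, adjusted p = 0.00503). Leaving out IgG IP replicate 3, or else IGF2BP3 IP replicate 2, the adjusted p-values were 0.0525 (log2 fold change 0.92) and 0.0521 (0.91). *MDK*, a heparin-binding growth factor, and *VEGFA* were at -0.08 and -0.17.

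The other heparan sulfate proteoglycans had 0 calls among 4 tested RNAs, all with log2 fold changes above 0. *AGRN*, which encodes the basement membrane proteoglycan agrin, had 27, 39 and 28 counts against 55, 60 and 61 and a log2 fold change of 0.86 (SE 0.21, adjusted p = 0.0928). With the replicate block it was 0.86 (adjusted p = 0.0103). *CD44*, whose variant forms can carry heparan sulfate, had 7848 to 13589 counts per library and was at 0.35 (SE 0.17, adjusted p = 0.462). *NRP1*, a co-receptor for VEGF, was at 0.36 (SE 0.11, adjusted p = 0.202), and *TGFBR3*, the betaglycan, at 0.14 (SE 0.47) with 7 to 19 counts.

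**Figure D4:**
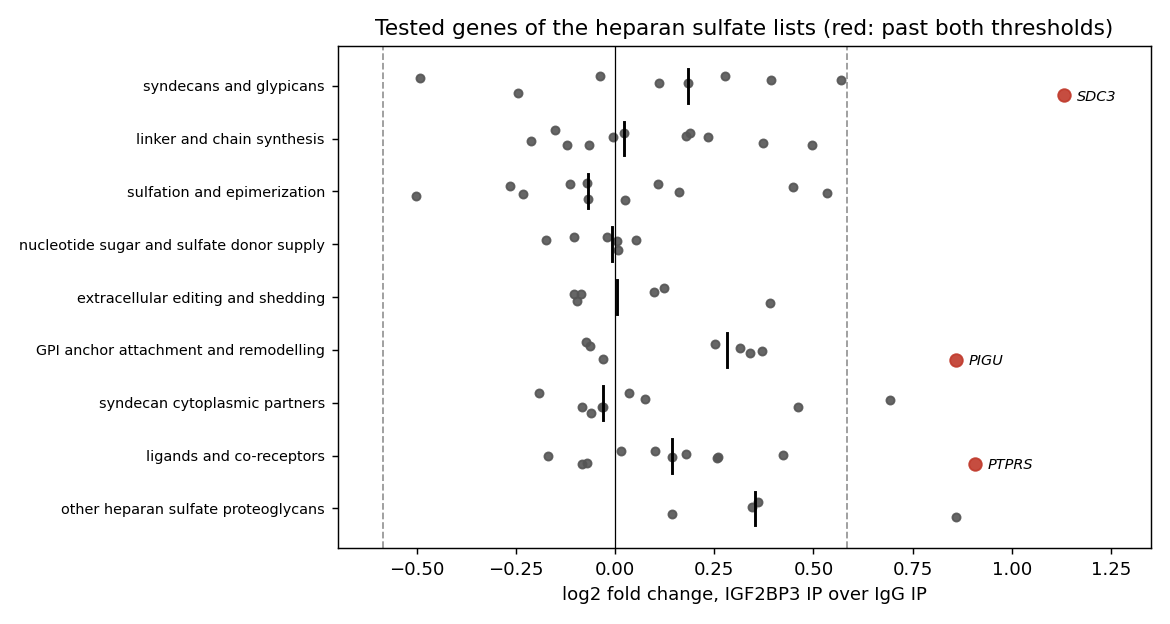
Log2 fold change of IGF2BP3 IP over IgG IP for the tested genes of the syndecan and glypican families and of the 8 heparan sulfate lists, 1 point per gene, with the list median (black bar) and 1.5-fold differences (dashed lines). *SDC3*, *PIGU* and *PTPRS* (red) were past both thresholds, and the list medians lay between -0.07 and 0.35.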

How the data were processed

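The 6 RIP-seq libraries of WaGa cells were grouped by their labels. According to the labels and the study's methods, read alignment used STAR 2.7.9a with GRCh38, and quantification used RSEM with GENCODE version 37. The authors deposited raw read counts for each gene, and TPM and FPKM values, both of which the authors scaled for length. The program and strand setting behind the counts are not given in the sources used here, so overlapping genes are uncertain. Unlisted sample columns numbered 0.

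In R 4.3.3, edgeR 4.0.16 was run on the counts (filterByExpr, TMM normalization, quasi-likelihood fit with the IP antibody as the sole factor), with the thresholds of the study. The DESeq2 test that the study used (here 1.42.0), a replicate block, limma 3.58.1 on TPM, other scalings and filters, GC correction (loess span 0.5) and leaving out each library were alternatives. The fits were tested on simulated data. Precision is limited by 3 libraries a group, and count limits cover counting error only.

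The members and lists were chosen with earlier results of these data known. Named were all members, and of each list the genes past both thresholds, the 2 with the highest mean TPM, those with the highest and lowest log2 fold change, and genes overlapping a member. Across genes, deviations from the group means correlated at 0.57, 0.28 and 0.23 between same-numbered libraries 1 to 3. Crossing replicates 2 and 3 gave 0.28 and 0.27, so these values set replicate 1 apart but do not show pairs for replicates 2 and 3. Whether same-numbered libraries came from one lysate is not stated in the sources used here. The main fit therefore left the replicate number out, and the block was an alternative. Annotation and sequences came from GENCODE version 44 on GRCh38, which held 60437 of the 60655 gene identifiers.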

Additional observations from a re-analysis of the deposited data

How the results depend on the processing

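*SDC3* kept its direction under all 16 alternatives, from 0.98 to 1.30 on the log2 scale, and remained the 1 member past the thresholds except with limma-trend on log2(TPM + 1) or log2(TPM + 0.1), where 0 members were called, and without single libraries (0 to 1). *GPC1*, *GPC3* and *GPC6* stayed above 0 and *GPC4* below 0 under all alternatives, while *SDC1*, *SDC2*, *SDC4* and *GPC2* changed sign under some. At most *GPC1* reached 0.62 and *GPC6* 0.74 on the log2 scale, above the fold minimum but without a call. The count of enriched heparan sulfate genes was 2, with 0 by limma-trend on either TPM scale, 4 with the replicate block (*PTPRS*, *PIGU*, *TIAM1* and *AGRN*) and 0 to 4 without single libraries (0 without IgG IP replicate 3, 0 without IGF2BP3 IP replicate 2, 4 without IGF2BP3 IP replicate 1, which added *TIAM1* and *NDST1*). Over all tested RNAs the count was 169, against 281 with DESeq2, 359 with no filter beyond 1 count, 0 by limma-trend on either TPM scale, 110 with the GC correction, 517 with the replicate block, 347 with the GC correction and the block, and 0 to 244 without single libraries. Leaving out IGF2BP3 IP replicate 2 gave 0, and leaving out IgG IP replicate 3 gave 7. Calls numbered 19 without the second IgG IP library and 23 without the third IGF2BP3 IP library. The replicate block changed no other call of a member or a named gene. With the block, *GPC1* (log2 fold change 0.56, adjusted p = 0.0036) and *GPC6* (0.40, adjusted p = 0.0156) passed the adjusted p-value threshold but not the fold minimum.

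Of the named list genes, 15 not past the thresholds changed sign under some alternative, and the cause was not tested. The TPM scales had no TMM step, and there all genes given next except *TGFBR3* moved from below 0 to above 0. On log2(TPM + 1) and log2(TPM + 0.1) the log2 fold changes were 0.030 and 0.031 for *FAM20B*, 0.11 and 0.12 for *EXTL2*, 0.071 and 0.072 for *GLCE*, 0.028 and 0.028 for *SLC35B3*, 0.14 and 0.14 for *ADAM10*, 0.54 and 0.85 for *SULF1*, 0.093 and 0.095 for *PIGK*, 0.14 and 0.14 for *EZR* and 0.011 and 0.011 for *MDK*, and on the latter -0.093 for *TGFBR3*. With the GC correction, without and with the block, they were 0.057 and 0.053 for *GLCE*, 0.028 and 0.026 for *SLC35B3*, -0.060 and -0.060 for *SLC35B2*, 0.054 and 0.056 for *ADAM10*, -0.033 and -0.030 for *MMP14*, 0.11 and 0.11 for *PIGK* and 0.063 and 0.063 for *PDCD6IP*. With library totals *EZR* was at 0.0093. Without single libraries the ranges were -0.20 to 0.048 for *GLCE*, -0.0028 to 0.067 for *HS2ST1*, -0.018 to 0.10 for *SLC35B2*, -0.18 to 0.025 for *ADAM10*, -0.34 to 0.087 for *SULF1*, -0.13 to 0.016 for *PIGK*, -0.074 to 0.021 for *EZR*, -0.45 to 0.062 for *SDCBP* and -0.24 to 0.44 for *TGFBR3*. The rarer RNAs (*SDC2*, *GPC2*, *GPC4*) had intervals that depth leaves wide.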
